A study of Homo sapiens with 4 samples.

Results

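The NRF2 antioxidant genes examined here are 9 genes: the transcription factor gene NFE2L2, its inhibitor KEAP1, and the target genes NQO1, GCLM, GCLC, TXNRD1, SRXN1, HMOX1 and OSGIN1. They were taken by symbol from the gene count tables, and the set was chosen with earlier results of these data known. All 9 were present among the 61228 features listed, and all 9 passed the filter on low counts that left 19159 genes for testing. Their RNA was measured by RNA-seq in H1792, an established human lung cancer cell line whose genotype the labels give as WT without naming a gene. ACBI1 was set against its solvent to see which of these transcripts differed. A pair of libraries came from cells kept for 96 h with DMSO, and a pair from cells kept for 96 h with ACBI1, a PROTAC that directs the chromatin remodelling proteins SMARCA2, SMARCA4 and PBRM1 to the VHL ubiquitin ligase for degradation. The labels give the dose of ACBI1 as 1 mM, and this unit could not be checked from the counts.

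NRF2, the protein made from NFE2L2, is held in the cytoplasm by KEAP1, an adaptor that presents it to a CUL3 ubiquitin ligase, so that it is degraded almost as soon as it is made. Oxidants and electrophiles modify cysteines of KEAP1, and NRF2 then accumulates, pairs with a small MAF protein and binds antioxidant response elements, short DNA motifs near genes for glutathione and thioredoxin metabolism, NADPH supply and detoxification. The pathway is controlled mainly through the stability of the NRF2 protein, and it is often switched on by mutation in lung cancer. BACH1, a repressor that pairs with the same MAF proteins, binds the same kind of element and is best known for holding down HMOX1.

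The gene counts of the 4 libraries summed to between 64281850 and 86010100. CPM here is counts per 1000000 gene counts, with library sizes scaled by TMM. Across all tested genes, which do not replicate each other, the log2 CPM values had a Pearson's r that was 0.983 between the DMSO libraries, 0.986 between the ACBI1 libraries and 0.928 to 0.948 between groups. The labels number the libraries of a group as replicates without saying whether they came from separate cultures, so p-values measure only the spread between these samples, which may be technical. Some keratin transcripts of epithelial cells were present, with KRT7, KRT8 and KRT18 between 58.7 and 680 CPM. Other epithelial markers were low, with KRT19 at most 5.00 CPM, CDH1 at most 16 counts and NAPSA at most 17 counts in any library. NKX2-1, a defining lung lineage factor, had 0 counts in every library, and SFTPB and SFTPC had at most 9 counts in any library. The 5 immune markers summed to at most 0.778 CPM in any library, with CD3E at 0 in all 4. The 10 epithelial markers summed to 982 and 1035 CPM with DMSO and 323 and 202 CPM with ACBI1. EPCAM did not follow this sum, with 5.38 and 2.78 CPM with DMSO and 15.6 and 4.8 CPM with ACBI1, where the groups overlapped. The 4 endothelial markers summed to 12.7 and 49.0 CPM with DMSO and to 0.123 and 0.107 CPM with ACBI1. PECAM1 alone had 12.2 and 48.1 CPM of the DMSO sums. The 4 fibroblast markers summed to 345 and 752 CPM with DMSO and to 71.0 and 222 CPM with ACBI1. COL1A1 alone had 324 and 693 CPM of the DMSO sums and 62.3 and 210 CPM of the ACBI1 sums. These sums moved with the treatment, and their part in the results below was not tested. H1792 is an established cell line, and such sums do not show that cells of other types were present. In bulk RNA, fewer cells that express a gene and less of its RNA per cell cannot be told apart. Of the genes for the degrader's targets, SMARCA4 had a mean of 250 ± 47.8 CPM in DMSO (SD, n = 2) and 406 ± 11.3 CPM under ACBI1. Neither SMARCA4 (edgeR adjusted p 0.0583) nor SMARCA2 (0.163) nor PBRM1 (0.734) passed the test at the RNA level.

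Promoter windows of these genes were searched for the core of the element that NRF2 is known to bind. RefSeq windows (GRCh38.p14, 250 bases before to 50 bases after a gene's start) were matched by symbol for 8 of the 9 genes, 11 windows in all, and none was matched for HMOX1. The core of the antioxidant response element was searched on both strands as TGACNNNGC or TGAGNNNGC. It was found in 7 of the 11 windows, belonging to NFE2L2, KEAP1, NQO1, GCLM, TXNRD1 (both of its windows) and OSGIN1, and in 29.1% of all 35116 windows of the same length. No match was found in the windows of GCLC and SRXN1, which says only that these letters do not occur there. Every match that begins and ends before the start is printed, with 10 bases on either side, for GCLM, TXNRD1, OSGIN1 and NQO1. Transcripts of GCLM, TXNRD1 and OSGIN1 rose, and the mean of NQO1 was lower, as was that of GCLC. Matches in NFE2L2 and KEAP1, which were not called, are not printed, and a KEAP1 match has the same letters as the GCLM match printed. Elements outside the windows were not searched. The sequences run 5′ to 3′ on the gene's strand, and the capitals mark the match, which reads as its reverse complement where it lies on the other strand.
GCLM, chr1:93909446-93909474, minus strand: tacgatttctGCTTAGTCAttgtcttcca
TXNRD1, first start, chr12:104215670-104215698, plus strand: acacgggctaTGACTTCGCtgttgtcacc
TXNRD1, second start, chr12:104286824-104286852, plus strand: ggggcggctaTGAGCAGGCagaggatgtg
TXNRD1, second start, chr12:104286920-104286948, plus strand: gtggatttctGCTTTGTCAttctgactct
OSGIN1, chr16:83953131-83953159, plus strand: acgggcccctGCTGACTCAcgcttatgaa
NQO1, chr16:69726661-69726689, minus strand: tcctggagctGCAGCCTCAgcatcctccg
The GCLM match, read on the other strand as TGACTAAGC, begins 34 bases before the RefSeq start. The OSGIN1 match, read as TGAGTCAGC, begins 99 bases before it and overlaps a match to the AP-1 motif TGANTCA, which 7.71% of all windows hold. The third TXNRD1 match reads TGACAAAGC on the other strand and begins 102 bases before the second start. The starts are those of RefSeq. In GENCODE 29 the stretches printed for NQO1 and for the second TXNRD1 start lie wholly in exons of those genes. The GCLM stretch has 11 bases in an exon. Such matches describe the letters in a window and do not show that a factor was bound.

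The NRF2 genes moved apart under ACBI1. Transcripts of HMOX1, OSGIN1, TXNRD1 and GCLM rose, those of NFE2L2 and KEAP1 did not pass the test, and the means of NQO1 and GCLC were lower without passing it. Calls rest on edgeR's quasi-likelihood test, with an adjusted p (Benjamini-Hochberg, all tested genes) under 0.05. Of the 9 genes 4 (44.4%) were called, each of them higher, beside 17.4% of all tested genes called in either direction and 6.75% called higher. Over the 9 genes the log2 changes had a median of 0.84, beside 0.01 over all tested genes. In 8 of the 9 genes the libraries of the groups did not overlap, 6 with both ACBI1 libraries above and 2 with both below, where 63.2% of all tested genes showed such a separation (31.1% above and 32.2% below). For 1 value in 2 against 2 libraries, the smallest p that an exact permutation test allows is 0.333.

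**Figure D1:**
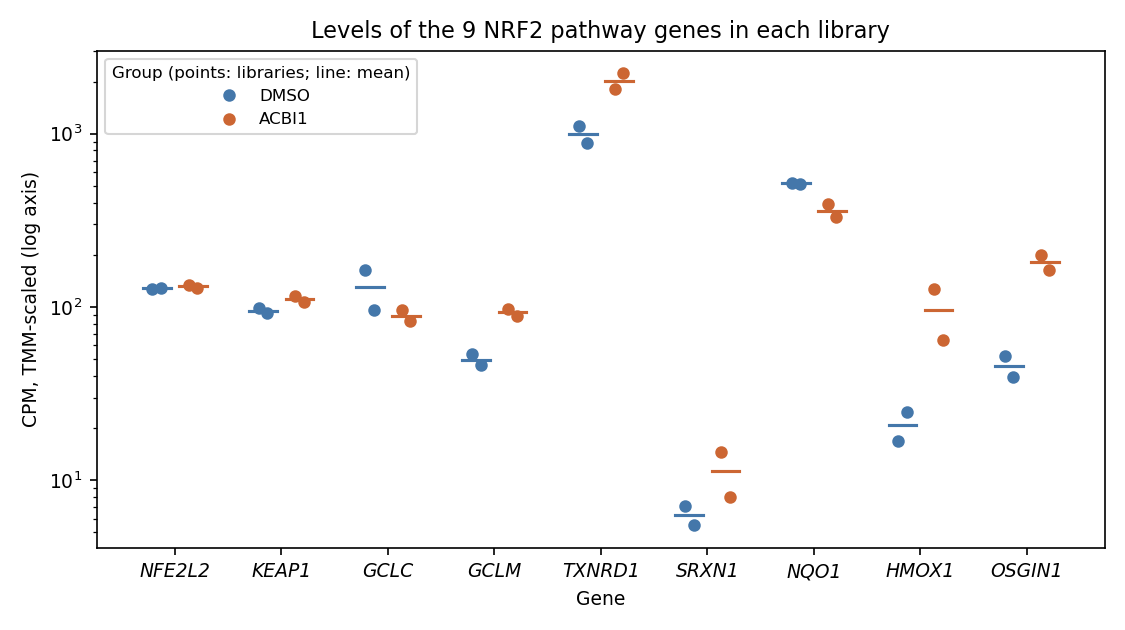
Level of each of the 9 genes in CPM (vertical axis, log scale) in each library. Points are single libraries and horizontal lines are group means, blue for DMSO and orange for ACBI1; HMOX1, OSGIN1, TXNRD1 and GCLM sit higher with ACBI1, the NFE2L2 points lie together between 128 and 135 CPM, and both NQO1 points with ACBI1 lie under both with DMSO.

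The regulators came first. NFE2L2 (chr2:177227595-177392697, minus strand, GENCODE 29) had 128 and 129 CPM with DMSO, and 135 and 128 CPM with ACBI1. The 4 values overlapped between the groups and spanned a narrow range. Another transcript on the same strand covers 17.6% of the exonic length of NFE2L2. The log2 change of NFE2L2 was 0.03 (SE 0.15) with a 95% interval from -0.33 to 0.40 and an edgeR adjusted p of 0.899, so that the transcript of the factor itself showed no difference beyond the spread between libraries. KEAP1 (chr19:10486120-10503741, minus strand) had 98.2 and 91.9 CPM with DMSO and 116 and 106 CPM with ACBI1. Both ACBI1 libraries were above both DMSO libraries by a small margin, and the log2 change of 0.22 (95% interval -0.15 to 0.60) did not pass (edgeR adjusted p 0.356). Within a library, KEAP1 had 0.769 and 0.713 counts for each NFE2L2 count with DMSO and 0.860 and 0.830 with ACBI1. The NRF2 protein was not measured here.

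GCLC and GCLM encode the catalytic and the modifier subunit of glutamate-cysteine ligase, the enzyme of the rate-limiting step of glutathione synthesis. GCLM (chr1:93885205-93909456, minus strand) had 53.5 and 46.0 CPM with DMSO and 98.0 and 89.0 CPM with ACBI1, with clear space between the groups. The transcript rose 1.88-fold, a log2 change of 0.91 (SE 0.16, edgeR adjusted p 0.0179). When an ACBI1 library was left out, the log2 change of GCLM was 0.85 (adjusted p 0.0862 without ACBI1 replicate 1) or 0.97 (0.0509 without ACBI1 replicate 2), which ended the call. GCLC (chr6:53497341-53616970, minus strand) had 164 and 95.7 CPM with DMSO and 95.5 and 82.8 CPM with ACBI1. The groups were separated by less than 1 CPM, between the second DMSO library and the first ACBI1 library. The log2 change of GCLC was -0.54 (SE 0.27, 95% interval -1.21 to 0.12, edgeR adjusted p 0.218). This value rested on DMSO replicate 1: it was -0.10 (adjusted p 0.817) without that library and -0.88 (adjusted p 0.0211, a call) without DMSO replicate 2. With no filter beyond 1 count GCLC was also called lower (adjusted p 0.0464), as it was with the replicate number as a block (0.0229). These settings called 5518 and 7909 genes in all, beside 3331 in the main fit, so calls in them carry less weight. For each GCLC count there were 0.327 and 0.481 GCLM counts in the DMSO libraries and 1.03 and 1.08 in the ACBI1 libraries. The mean of this ratio, which TMM scaling does not touch, was 2.60 times as high with ACBI1. The pair was chosen after the values were seen, and the ratio restates the changes of GCLM and GCLC.

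TXNRD1 and SRXN1 belong to the thioredoxin system, which reduces oxidised protein thiols. TXNRD1, the cytosolic selenoprotein that passes electrons from NADPH to thioredoxin, was the most abundant of the 9 transcripts in CPM in every library. TXNRD1 (chr12:104215779-104350305, plus strand) had 1106 and 887 CPM with DMSO and 1803 and 2229 CPM with ACBI1. The lowest ACBI1 library was well above the highest DMSO library. It rose 2.02-fold, a log2 change of 1.02 (SE 0.22, edgeR adjusted p 0.0281). The log2 change of TXNRD1 was 1.17 (adjusted p 0.0563) without ACBI1 replicate 1 and 0.85 (adjusted p 0.122) without ACBI1 replicate 2, neither of which passed. SRXN1, sulfiredoxin, repairs overoxidised peroxiredoxins. SRXN1 (chr20:646615-653370, minus strand) had 7.06 and 5.50 CPM with DMSO and 14.5 and 8.01 CPM with ACBI1. The groups did not overlap, but the ACBI1 libraries lay far apart, and the log2 change of 0.84 (SE 0.35) was not called (edgeR adjusted p 0.147). The log2 change of SRXN1 was 0.36 without ACBI1 replicate 1, and no omission of a library gave a call (adjusted p 0.0763 to 0.621), and with no filter beyond 1 count SRXN1 was called higher (adjusted p 0.0406), as it was with the replicate number as a block (0.00728). The fits without the filter and with the block called 5518 and 7909 genes in all, beside 3331 in the main fit. In GENCODE 29 the exons of another gene on the same strand cover 85.0% of the exonic length of SRXN1, so reads there may have been set aside as ambiguous and the counts of SRXN1, between 396 and 1300, carry that uncertainty.

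NQO1, a reductase that takes quinones to hydroquinones in a single step, is the gene most used as a readout of NRF2. NQO1 (chr16:69706996-69726951, minus strand) had 521 and 511 CPM with DMSO and 391 and 329 CPM with ACBI1. Both ACBI1 libraries were below both DMSO libraries, which nearly coincided. The log2 change of NQO1 was -0.52 (SE 0.18) with a 95% interval from -0.95 to -0.09 before adjustment over all genes, and it did not pass (edgeR adjusted p 0.0969, with 0.0564 to 0.138 over 7 alternatives on all 4 libraries without a block). With the replicate number as a block NQO1 was called lower (adjusted p 0.0134), in a fit that called 7909 genes beside 3331 in the main fit. An antisense transcript covers 17.7% of the exonic length of NQO1, and without a stated strand setting reads of both cannot be told apart. For each NQO1 count there were 2.12 and 1.74 TXNRD1 counts with DMSO and 4.61 and 6.78 with ACBI1. This pair was chosen after the values were seen, and its ratio restates the changes of TXNRD1 and NQO1 given here.

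HMOX1, haem oxygenase 1, breaks haem down to biliverdin, iron and carbon monoxide. HMOX1 (chr22:35380361-35394214, plus strand) had 16.8 and 24.8 CPM with DMSO and 128 and 64.7 CPM with ACBI1. Both ACBI1 libraries were high, the first well above the second, and the groups were far apart. HMOX1 rose 4.63-fold, a log2 change of 2.21 (SE 0.37, 95% interval 1.32 to 3.10, edgeR adjusted p 0.0145), the largest change of the 9 genes, with 6.33% of all tested genes changing by more in size. It was called whichever library was left out, with log2 changes between 1.65 (ACBI1 replicate 1 omitted) and 2.61 (ACBI1 replicate 2 omitted). OSGIN1 encodes an oxidative stress-induced growth inhibitor. OSGIN1 (chr16:83948282-83966332, plus strand) had 51.9 and 39.5 CPM with DMSO and 199 and 164 CPM with ACBI1. Both ACBI1 values were far above both DMSO values. OSGIN1 rose 3.97-fold, a log2 change of 1.99 (SE 0.21, edgeR adjusted p 0.00455), the smallest adjusted p of the 9, and it was called whichever library was left out. Another gene on the same strand covers 13.9% of its exonic length.

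**Figure D2:**
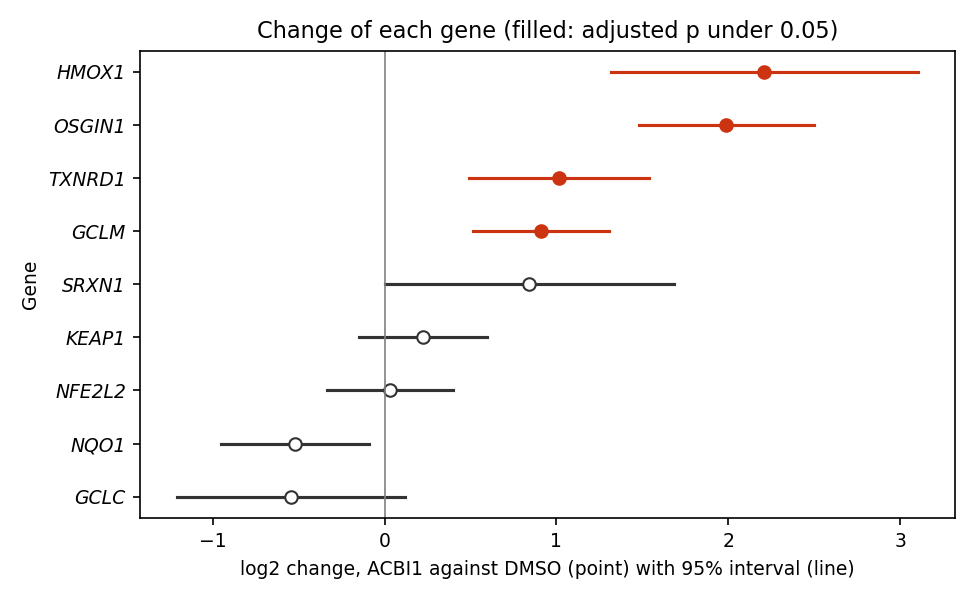
Log2 change with ACBI1 against DMSO (horizontal axis) of each of the 9 genes; points are edgeR estimates, lines are 95% intervals before adjustment, and filled red points had an adjusted p under 0.05. Estimates ran from -0.54 for GCLC to 2.21 for HMOX1, with NFE2L2 at 0.03.

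Levels of different genes were compared per length, as CPM for each kilobase of exonic sequence in GENCODE 29. With DMSO, NQO1 (159 ± 2.25, SD, n = 2) and TXNRD1 (149 ± 23.1) led and did not differ beyond their spread. KEAP1 (25.3 ± 1.19) and NFE2L2 (21.5 ± 0.134) followed, then GCLC (11.1 and 19.0 in its libraries) and OSGIN1 (13.2 ± 2.52), which overlapped. GCLM (9.18 ± 0.985) and HMOX1 (8.65 ± 2.36) also overlapped. SRXN1 had 2.33 ± 0.408, a value divided by its whole exonic length although 85.0% of it is shared with another gene, so its place in the order is uncertain. With ACBI1 the order changed. TXNRD1 (301 ± 45.0 CPM per kilobase) stood apart from NQO1 (111 ± 13.6). OSGIN1 (52.5 ± 7.13) and HMOX1 (40.0 ± 18.5), which did not differ beyond their spread, had passed KEAP1 (29.5 ± 1.76) and NFE2L2 (22.0 ± 0.755) in their means, although the lower HMOX1 library lay under both KEAP1 libraries. GCLM (17.3 ± 1.16) was above GCLC (10.3 ± 1.05), and SRXN1 had 4.18 ± 1.71 with the same uncertainty.

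Other genes of the pathway were described in 8 lists arranged by role, 108 genes in all. Of 99 that could be tested, 34 were called lower, 3 higher and 62 in neither direction, so that 34.3% were called lower beside 10.6% of all tested genes. Their median log2 change was -0.47. In the following, values are means of CPM ± SD over 2 libraries and adjusted p-values are from edgeR's quasi-likelihood test. Of the partners and regulators of NRF2, all 15 were tested, and the median log2 change was -0.26. Among them 4 were called lower (26.7%, beside 10.6% of all tested genes) and 1 higher (6.67%, beside 6.75%). NFE2L1, a related factor best known for proteasome genes, fell from 1299 ± 374 to 350 ± 57.6 CPM (log2 change -1.89, adjusted p 0.00930). SYVN1, a ligase of the endoplasmic reticulum that can also degrade NRF2, fell from 127 ± 2.24 to 48.7 ± 3.66 CPM (log2 change -1.38, adjusted p 0.00534). MAFF, a small MAF partner, fell from 51.9 ± 2.68 to 30.7 ± 2.15 CPM (log2 change -0.76, adjusted p 0.0257), and this call was lost without DMSO replicate 2, ACBI1 replicate 1 or ACBI1 replicate 2 (adjusted p 0.0613, 0.103 and 0.133). PGAM5, a mitochondrial phosphatase that binds KEAP1, rose from 85.1 ± 0.266 to 174 ± 11.4 CPM (log2 change 1.03, adjusted p 0.0111; 0.0520 without ACBI1 replicate 2). BACH1, singled out after its values were seen because it represses HMOX1, had 121 and 145 CPM with DMSO and 51.9 and 84.8 CPM with ACBI1. The groups did not overlap, but its log2 change of -0.96 was not called (adjusted p 0.0549). Whether BACH1 had a part in the HMOX1 values was not tested.

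**Figure D3:**
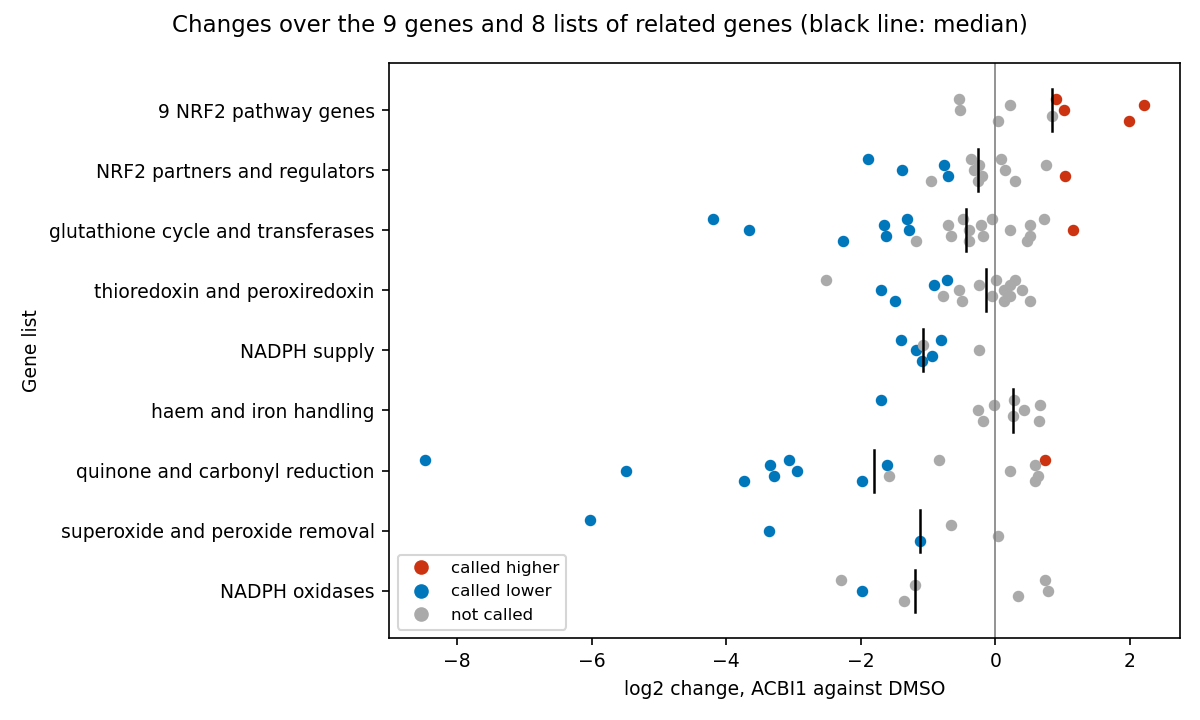
Log2 change with ACBI1 against DMSO (horizontal axis) of the 9 genes and of the 99 tested genes in 8 lists of related function (rows, with points spread vertically to keep them apart). Red points were called higher, blue points lower and grey points were not called, and black lines are medians; 4 of the 9 genes are red and none is blue, while the 8 lists hold 34 blue points and 3 red.

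Genes of the glutathione cycle and its transferases included 22 tested of 23, with a median log2 change of -0.43. Of the tested genes 7 were called lower (31.8%, beside 10.6% of all tested genes) and 1 higher (4.5%, beside 6.75%). GPX3, the secreted glutathione peroxidase, fell from 174 ± 89.7 to 9.55 ± 6.66 CPM (log2 change -4.19, adjusted p 0.0108), or by -3.54 without DMSO replicate 2, -3.60 without ACBI1 replicate 1 and -5.18 without ACBI1 replicate 2. ABCC3, an exporter of glutathione and glucuronide conjugates, fell from 348 ± 130 to 27.4 ± 12.3 CPM (log2 change -3.67, adjusted p 0.00571). GLRX, glutaredoxin, fell from 24.3 ± 1.88 to 5.06 ± 0.759 CPM (log2 change -2.27, adjusted p 0.00384). MGST1, a microsomal glutathione transferase, fell from 292 ± 1.31 to 93.1 ± 13.8 CPM (log2 change -1.65, adjusted p 0.00503). The single rise was that of GSR, glutathione reductase, from 115 ± 5.79 to 257 ± 18.8 CPM (log2 change 1.16, adjusted p 0.00940). SLC7A11, the cystine transporter that feeds GCLC and GCLM and was singled out after its values were seen, had 458 ± 113 and 350 ± 0.828 CPM (log2 change -0.39, adjusted p 0.260).

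Of the thioredoxin and peroxiredoxin genes all 18 were tested, and the median log2 change was -0.14. Among them 4 were called lower (22.2%, beside 10.6% of all tested genes). None of these 18 was called higher, beside 6.75% of all tested genes, and 5 had an unadjusted p under 0.05, beside 33.9% of all tested genes. The methionine sulfoxide reductases MSRA and MSRB2 fell, with log2 changes of -1.69 (adjusted p 0.00673) and -1.49 (adjusted p 0.0160; 0.0612 without ACBI1 replicate 2). PRDX6 fell from 394 ± 16.0 to 209 ± 12.2 CPM (log2 change -0.91, adjusted p 0.0179), a call lost without ACBI1 replicate 1 (0.117) or ACBI1 replicate 2 (0.0718). The PRDX2 change (log2 -0.72, adjusted p 0.0419) was also called with DMSO replicate 1 left out, but with none of the others left out (0.145 without DMSO replicate 2, 0.200 and 0.129 without ACBI1 replicates 1 and 2), nor with scaling by library size only (0.0569).

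Genes for NADPH supply, on which TXNRD1, GSR and NQO1 all draw, numbered 7, and all 7 had both ACBI1 libraries below both DMSO libraries, as did 32.2% of all tested genes. Of these 5 were called lower (71.4%, beside 10.6% of all tested genes), and the median log2 change was -1.07. IDH1, the cytosolic isocitrate dehydrogenase, fell from 245 ± 15.8 to 92.4 ± 13.5 CPM (log2 change -1.40, adjusted p 0.00753). PGD, of the oxidative pentose phosphate pathway, fell from 380 ± 11.6 to 168 ± 37.1 CPM (log2 change -1.18, adjusted p 0.0167). TKT and TALDO1, of its non-oxidative branch, had log2 changes of -1.09 (adjusted p 0.0355) and -0.94 (adjusted p 0.0186). Without ACBI1 replicate 1 the calls of PGD, TKT and TALDO1 were lost (adjusted p 0.0841, 0.162 and 0.122), as was that of TALDO1 without ACBI1 replicate 2 (0.0516).

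Genes that handle haem and iron beside HMOX1 numbered 9, of which 1 was called (11.1%, no more than the 17.4% of all tested genes), and the median log2 change was 0.26. FTH1, the ferritin heavy chain, fell from 5322 ± 923 to 1646 ± 410 CPM (log2 change -1.69, adjusted p 0.0117). FTL, the ferritin light chain, singled out after its values were seen, had 1814 ± 86.2 and 2861 ± 386 CPM (log2 change 0.66, adjusted p 0.0694). The ratio of FTH1 to FTL counts was 3.41 and 2.49 in the DMSO libraries and 0.618 and 0.524 in the ACBI1 libraries. Exons of BEST1 on the other strand overlap 62.4% of the exonic length of FTH1, and ferritin genes have many processed pseudogenes, so these counts carry some uncertainty.

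**Figure D4:**
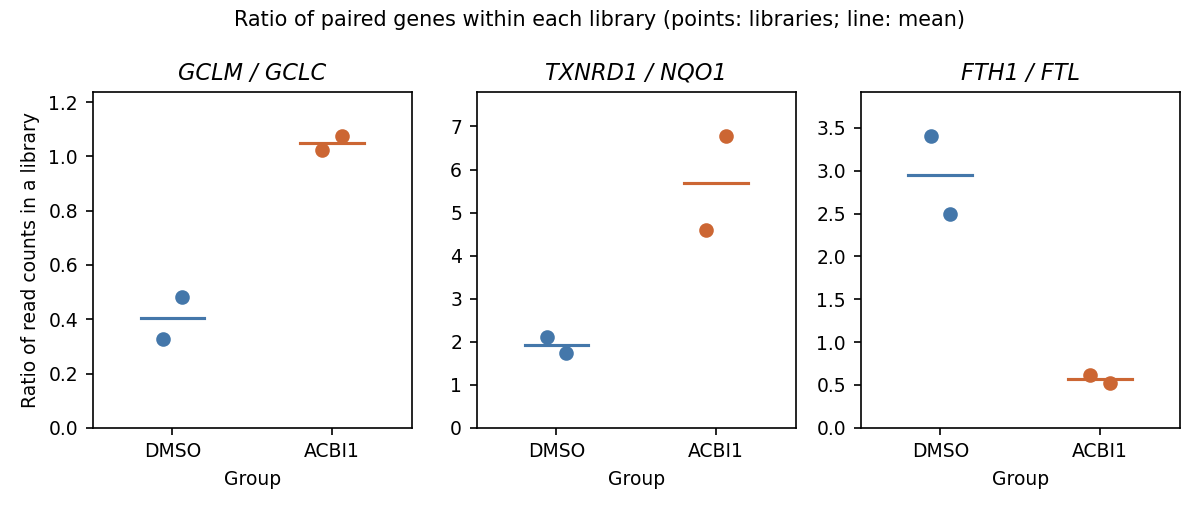
Ratio of the read counts of paired genes within each library (vertical axes, each from 0), for GCLM over GCLC, TXNRD1 over NQO1 and FTH1 over FTL. Points are libraries and lines are group means; the pairs were chosen after the values were seen, and in each the DMSO and ACBI1 libraries lie apart, with GCLM over GCLC at 0.404 against 1.05 in the means.

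Genes for quinone and carbonyl reduction included AKR1B10, which had the largest fitted fall in the 8 lists. Of 18 genes 16 were tested, and the median log2 change was -1.80. Of the tested genes 9 were called lower (56.25%, beside 10.6% of all tested genes) and 1 higher (6.25%, beside 6.75%). The aldo-keto reductases AKR1C1, AKR1C2 and AKR1C3, which are widely used as markers of NRF2 activity together with NQO1, fell. AKR1C1 had 359 and 795 CPM with DMSO and 28.1 and 84.8 CPM with ACBI1, and the log2 change was -3.36 (adjusted p 0.0198). AKR1C2 went from 77.9 ± 48.3 to 1.76 ± 0.794 CPM (log2 change -5.48, adjusted p 0.00468), and AKR1C3 had a log2 change of -3.73 (adjusted p 0.0145). These 3 genes are similar in sequence, to different degrees, so some reads may be split or dropped among them. With a library left out, the log2 change ranged from -4.37 to -2.68 for AKR1C1 (extremes without ACBI1 replicate 2 and DMSO replicate 2, and -2.76 without ACBI1 replicate 1). It was -4.65 for AKR1C2 without DMSO replicate 2, and for AKR1C3 it was -3.06 without DMSO replicate 2, -3.14 without ACBI1 replicate 1 and -4.71 without ACBI1 replicate 2. AKR1B10 had 308 and 1122 counts with DMSO and 3 and 1 with ACBI1, which puts DMSO over ACBI1 at a ratio of 361 (exact interval for counting error, 95%, 141 to 1329). The fitted log2 change of AKR1B10, -8.48 (adjusted p 0.00613), depends on the prior count, and was -9.16 without DMSO replicate 1, -7.13 without DMSO replicate 2 and -9.15 without ACBI1 replicate 1. The gene called higher was NQO2, the paralogue of NQO1, which rose from 34.9 and 32.6 CPM with DMSO to 51.9 and 60.4 CPM with ACBI1 (log2 change 0.73, adjusted p 0.0306), where the NQO1 means went down.

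Enzymes that remove superoxide and peroxide included 5 tested genes, of which 3 were called lower and none higher, beside 10.6% and 6.75% of all tested genes. Their median log2 change was -1.12, and 4 had an unadjusted p under 0.05, beside 33.9% of all tested genes. SOD2, the mitochondrial superoxide dismutase, fell from 1885 ± 205 to 184 ± 1.80 CPM (log2 change -3.36, adjusted p 0.00141). GENCODE 29 lists 2 entries under the symbol SOD2, so overlap of its exons with other genes was not computed. CAT, catalase, fell from 62.5 ± 14.9 to 28.7 ± 2.71 CPM (log2 change -1.12, adjusted p 0.0205; 0.0914 without ACBI1 replicate 1). SOD3 had 26 and 52 counts with DMSO and 1 and 0 with ACBI1, a DMSO to ACBI1 ratio of 78.9 (exact interval for counting error, 95%, 13.7 to 3155). The fitted log2 change of SOD3, -6.02 (adjusted p 0.0131), was -5.34 without DMSO replicate 2, -8.25 without ACBI1 replicate 1 and -5.36 without ACBI1 replicate 2. On the side of production, 7 of 13 NADPH oxidase genes could be tested and 1 was called (14.3%, no more than the 17.4% of all tested genes). CYBA, the membrane subunit shared by several NADPH oxidases, fell from 262 and 246 CPM with DMSO to 58.6 and 70.2 CPM with ACBI1 (log2 change -1.98, adjusted p 0.00301). NCF4, NOX1 and DUOXA2 had at most 3 counts in any library, and differences in them were not detectable at this depth.

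Of 11151 other tested genes that averaged 5 CPM or more, those whose centred log2 CPM over the 4 libraries lay nearest to OSGIN1, the gene with the smallest adjusted p of the 9, were DLL3, GBX2, UNG, FCHO1 and TMCC1-DT. Their Euclidean distances to OSGIN1 were 0.15, 0.16, 0.20, 0.22 and 0.23 on the log2 scale. With 4 libraries in a pair of groups this likeness is mainly that of a similar fold change. UNG, a uracil-DNA glycosylase, went from 45.8 ± 3.77 to 180 ± 8.97 CPM (SD, n = 2).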

How the data were processed

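RNA-seq libraries of H1792 cells were analysed, 2 with DMSO and 2 with ACBI1, grouped by their titles. The files hold whole-number counts of reads per gene symbol as deposited, not normalized. Per the submitters' processing notes, TopHat2 2.1.1, HTSeq 0.11.0 and build hg38 were used; the annotation release and strand setting are not given in the sources used here. The 5 lines for reads given to no gene, 13.9% to 15.4% of the reads listed, entered neither library sizes nor tests.

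Genes were filtered with filterByExpr (minimum count 10, minimum total 15), scaled by TMM and compared in R 4.3.3 by edgeR 4.0.16 (glmQLFit, glmQLFTest, two-sided, treatment only), with Benjamini-Hochberg adjustment over 19159 genes and a threshold of 0.05. The SE is the log2 change divided by the square root of F. Counting intervals (95%) cover counting error only. The scripts were tested on simulated counts. Coordinates, exon lengths and overlaps came from GENCODE 29 (GRCh38), and promoter sequences from RefSeq (GRCh38.p14).

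The genes and lists were chosen with earlier results of these data known. The text names the 9 genes and, from every list, up to 4 called genes ranked by the size of their change, and for likeness the 5 nearest genes. BACH1, GSR, NQO2, SLC7A11 and FTL fall outside this rule and were chosen after their values were seen. Alternatives were other scalings and filters, the replicate number as a block, DESeq2 1.42.0, limma-voom (limma 3.58.1), a threshold of 0.01, and each library left out.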

Additional observations from a re-analysis of the deposited data

How the results depend on the processing

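The direction of the log2 change of each of the 9 genes was the same under every alternative run. HMOX1, OSGIN1, TXNRD1 and GCLM were called higher under all 7 alternatives on the 4 libraries without a block. The number of the 9 genes called was 4 with edgeR, 1 (OSGIN1) at a threshold of 0.01, and 2 to 5 with a library left out. With no filter beyond 1 count it was 6 (5 higher and 1 lower), and with the replicate number as a block it was 7. In the block fit NQO1 and GCLC were called lower (adjusted p 0.0134 and 0.0229) and SRXN1 higher (0.00728). Over all genes, 3331 were called, 5518 with no filter beyond 1 count, 783 at a threshold of 0.01, 7909 with the replicate block, and 1379 (without ACBI1 replicate 1) to 4292 (without DMSO replicate 1) with a library left out. In the related lists 37 were called, 16 at a threshold of 0.01, 62 with the replicate block and 24 to 45 with a library left out. The fits without a library have a lone library in a group, which is assumed to vary like the other group. No label ties the pairing by replicate number to a shared batch; deviations of same-numbered libraries from their group means correlated at 0.44 over all tested genes and at 0.61 over the 11160 with a mean of 5 CPM or more, with only 2 pairs. The cause of these shifts was not tested. Libraries scaled by size only moved the median log2 change of all genes to 0.09.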

Other observations

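For some redox genes the replicates of a group lay far apart. TXNIP, which binds and inhibits thioredoxin, had 382 and 41.9 CPM with DMSO, and 56.3 and 17.9 CPM with ACBI1. SESN2, a stress-induced sestrin, had 164 and 92.0 CPM with DMSO and 210 and 69.7 CPM with ACBI1. SQSTM1, the autophagy receptor that binds KEAP1, had 819 and 791 CPM with DMSO and 1782 and 931 CPM with ACBI1. Replicate 1 was the higher library of each group for these 3 genes, which were picked after their values were seen. None of the 3 was called between the groups (edgeR adjusted p 0.144 for TXNIP, 0.889 for SESN2 and 0.155 for SQSTM1).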
